A study of Mus musculus with 4 samples.

Results

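The genes described here are Duox2, Duoxa2, Nos2 and Nox1, 4 genes for epithelial oxidases, an oxidase maturation factor and a nitric oxide synthase, out of 32285 genes counted by single-cell RNA sequencing in mouse small intestine. They were found by gene symbol, and all 4 were present. They had been chosen by earlier fits of these same data, in which Nos2 and Duox2 were lower in knockout mice, and by their place among the leading genes of enterocyte clusters. The genotype values and cluster levels of the 4 genes are therefore a description, and no p-value is given for them. The cells came from 3 wild-type (WT) mice and 3 VilCreIfnlr1fl/fl mice, called KO, in which Cre under the Villin promoter deletes the interferon-λ receptor gene Ifnlr1 in intestinal epithelium. All 6 mice were sedated with ketamine and xylazine and received 11 Gy of gamma irradiation with lead over head, thorax and forelimbs, so no unirradiated tissue enters any value. The design text puts collection at 96 h and the protocol at 3 days, and strain, age and sex are not given in the sources used here. Live EPCAM-positive, CD45-negative cells were sorted, a hashtag identified the mouse of each cell, and each genotype's 3 mice went into a single pooled library. Genotype and pool cannot be told apart.

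DUOX2 is a membrane NADPH oxidase that releases hydrogen peroxide at the apical face of mucosal epithelia, and it reaches the surface only with its maturation factor DUOXA2. NOX1 is an oxidase best known from colon epithelium, which forms superoxide together with p22phox (Cyba) and the organiser and activator proteins NOXO1 and NOXA1. NOS2 is the inducible nitric oxide synthase, which makes nitric oxide from arginine and is induced in epithelium and macrophages by cytokines and microbial products. Duox2 and Duoxa2 are known to be induced together in gut epithelium by microbial and cytokine signals, and Nos2 is a classical target of interferon and NF-κB signalling.

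Duox2 (ENSMUSG00000068452) lies on chromosome 2 of GRCm38 from 122279247 to 122298449 on the minus strand, and Duoxa2 (ENSMUSG00000027225) from 122298900 to 122302885 on the plus strand. The pair is divergent, with annotated starts 451 bases apart. Nos2 (ENSMUSG00000020826) lies on chromosome 11 from 78920787 to 78960254 on the plus strand, and Nox1 (ENSMUSG00000031257) on chromosome X from 134086421 to 134221956 on the minus strand. The 3' end of Duoxa2 overlaps that of Duoxa1 on the other strand, and the longest Nox1 model overlaps 3 other genes. Strand use in counting is not stated in the sources used here, so reads in the overlaps may belong to either gene. Duoxa1 itself had 15 UMIs (unique molecular identifiers, 1 per captured transcript) in enterocytes of the 6 mice, whereas Duoxa2 had 10694 UMIs over all cells.

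The Duoxa2 side of the interval between Duox2 and Duoxa2 is shown because the pair is divergent; it does not reach the annotated Duox2 start. The Nox1 upstream sequence is shown because Nox1 did not follow them. Each is 250 bases of RefSeq sequence (GRCm38.p6) that end just before the RefSeq start, read 5' to 3' on the strand of the gene. Capitals mark every motif match found.

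Duoxa2 upstream, chr2:122298650-122298899, plus strand: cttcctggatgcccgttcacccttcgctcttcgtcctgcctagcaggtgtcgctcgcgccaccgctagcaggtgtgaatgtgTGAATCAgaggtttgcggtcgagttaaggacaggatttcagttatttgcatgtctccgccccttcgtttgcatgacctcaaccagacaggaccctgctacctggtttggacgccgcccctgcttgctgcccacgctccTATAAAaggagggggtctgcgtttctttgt

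Nox1 upstream, chrX:134111855-134112104, minus strand: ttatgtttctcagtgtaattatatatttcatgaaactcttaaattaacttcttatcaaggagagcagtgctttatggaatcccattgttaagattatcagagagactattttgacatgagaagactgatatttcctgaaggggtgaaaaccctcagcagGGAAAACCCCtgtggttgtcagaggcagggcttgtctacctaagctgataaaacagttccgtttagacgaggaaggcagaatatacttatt

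The motifs were searched on both strands: a GAS element (TTCNNNGAA), an ISRE-like element, the NF-κB consensus, the TATA box (TATAAA), the AP-1 site (TGANTCA) and a GATA site (AGATAA). The Duoxa2 window held a TATA box at 30 to 25 bases before the start, a motif in 12.4% of 32851 windows of that length, and an AP-1 site at 168 to 162 bases, a motif in 6.75%. The Nox1 window held 1 NF-κB consensus match at 91 to 82 bases, a motif in 7.25% of windows. GAS elements were in 7.02% of windows and ISRE-like elements in 2.98%, and neither was in the 2 windows shown. A match is a match of letters and not evidence of binding, and no match says nothing about a factor outside the window. The Duox2 window itself is not shown because 222 of its 250 bases lie in an annotated Duox2 exon.

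Barcodes under 1000 UMIs, under 500 genes or past 25% mitochondrial UMIs were removed, and hashtag doublets were left out, which gave 5014 WT and 3723 KO cells. Of these 8737 cells, 5641 were assigned to a mouse. Before any filter, 28 barcode sequences occurred in both libraries. The summed depth per mouse ran from 11142876 to 35999518 UMIs. The mice with hashtag 2 (WT2 and KO2) stood apart: they were the deepest of their genotype at 21067444 and 35999518 UMIs, and they held 269 of the 285 assigned crypt progenitor cells. Each cell was placed in the gate with the highest marker score, without the 4 genes. The enterocyte gate held 6800 cells, the goblet gate 1298 and the crypt progenitor gate 333, although the protocol speaks of isolating crypt cells. In the enterocyte gate 18 of 20 enterocyte markers were at their highest, 99.7% of cells had an Epcam UMI and 0.103% a Ptprc (CD45) UMI. Ifnlr1, the deleted gene, stood in enterocytes at 34.9, 25.5 and 35.1 CPM (UMIs of the gene per 1000000 UMIs of the summed cells) in WT1 to WT3 and at 37.9, 23.2 and 32.4 CPM in KO1 to KO3. The deleted exons are not named in the sources used here and 3' reads come from transcript ends, so these counts do not check the genotype.

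Duox2, which encodes the oxidase itself, was found in enterocytes of all 6 mice. It stood at 178, 171 and 202 CPM in WT1, WT2 and WT3 and at 202, 104 and 141 CPM in KO1, KO2 and KO3. KO1 was level with the highest WT mouse and KO2 was lowest, so the genotypes overlapped. The means were 184 ± 16.0 CPM (WT) and 149 ± 49.4 CPM (KO; SD, n = 3 each), and the fitted log2 fold change of KO over WT was −0.51 (SE 0.30). It was −0.40 (SE 0.18) without the hashtag 2 mice. In bulk sums of this kind, fewer cells with the transcript and less transcript per cell cannot be told apart from the sum alone. Deep cells also weigh more in such sums, and KO2 was the deepest mouse. Of the 615 enterocytes of KO2, 127 lay in cluster 10 (clusters are described below), where Duox2 stood at 5.80 CPM. That cluster had a median of 57193 UMIs per cell over both libraries. In WT2, 81 of 619 enterocytes lay in it, at 25.8 CPM. The sums of KO2 and WT2 without this cluster were not computed. Values from cells thinned to equal depth, given below, are not on the same scale and do not all keep this order.

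Duoxa2, which encodes the maturation factor, was lower in enterocytes of all KO mice than in those of any WT mouse. It stood at 107, 152 and 157 CPM in WT1 to WT3 and at 96.0, 70.7 and 95.6 CPM in KO1 to KO3. WT1 and the highest KO mouse lay close together in these sums. The deep cells of cluster 10 held 5.92 CPM of Duoxa2 in KO2 and 29.8 CPM in WT2. The value of KO2 and the KO mean thus depend on how cells are weighed. The shares of cells with a Duoxa2 UMI at equal depth, given below, overlapped between the genotypes. The means were 139 ± 27.5 and 87.5 ± 14.5 CPM (SD, n = 3 each), with a log2 fold change of −0.86 (SE 0.25), and −0.72 (SE 0.20) without the hashtag 2 mice.

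Nos2, the nitric oxide synthase, differed most between the genotypes among the 4 genes. It stood at 56.8, 55.9 and 105 CPM in WT1 to WT3 and at 17.3, 9.06 and 34.2 CPM in KO1 to KO3. The groups did not overlap, and the number 3 mouse was highest in both genotypes. The means were 72.5 ± 28.0 and 20.2 ± 12.8 CPM (SD, n = 3 each), 3.59-fold higher in WT, with a log2 fold change of −2.06 (SE 0.57). It was −1.91 (SE 0.39) without the hashtag 2 mice. Enterocytes without a hashtag, which enter no mouse, held 69.7 CPM in the WT and 18.4 CPM in the KO library.

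Nox1 was scarce, with 589 UMIs in all 8737 cells. It stood at 5.15, 5.46 and 3.40 CPM in WT1 to WT3 and at 6.93, 3.96 and 7.53 CPM in KO1 to KO3. The genotypes overlapped, and the log2 fold change was 0.22 (SE 0.35).

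**Figure D1:**
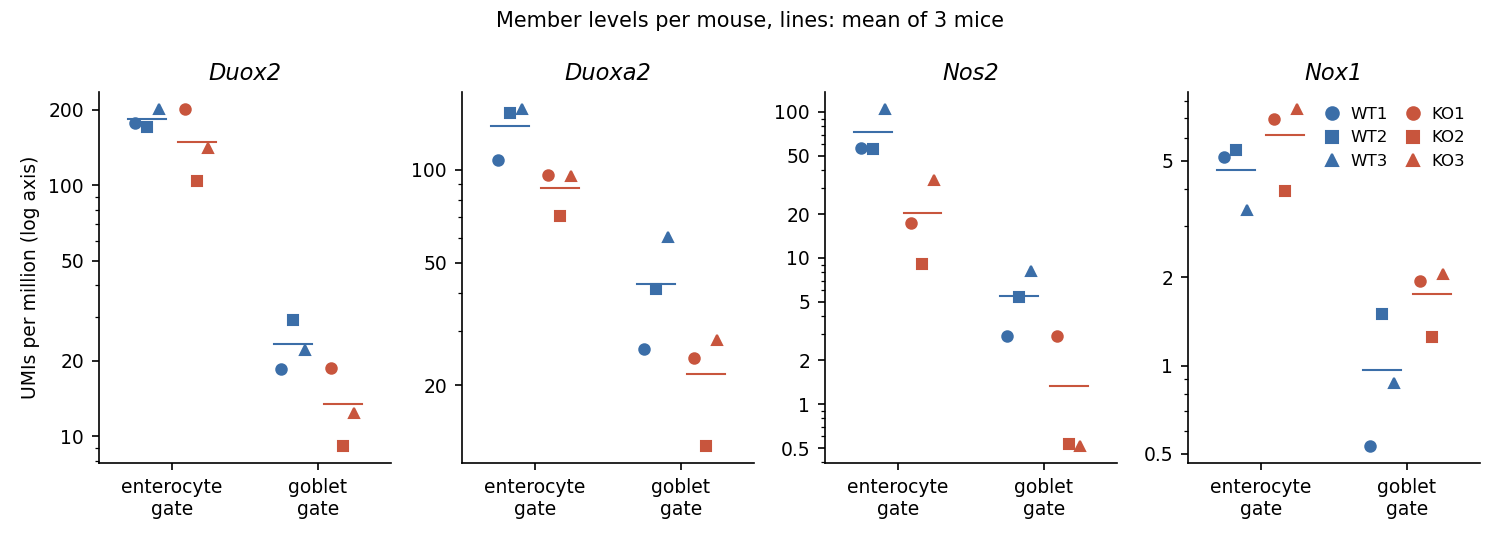
Levels of the 4 genes in CPM on log axes, in the enterocyte and goblet gates. Each symbol is 1 mouse (shape: hashtag number) and each line the mean of 3 mice. In these enterocyte sums Nos2 and Duoxa2 separate the genotypes, whereas KO1 reaches 202 CPM of Duox2, level with the highest WT mouse.

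The background for these counts is wide. Of 6772 genes with a mean of at least 10 CPM in enterocytes, 207 (3.06%) had all KO mice below all WT mice, as Nos2 and Duoxa2 were, and 503 (7.43%) had them above. In the edgeR quasi-likelihood fit over 11076 genes, 0% were called at an adjusted p under 0.05. The unadjusted p was under 0.05 for 480 genes, and 73 genes were called by DESeq2. With the hashtag number as a block, 2306 genes (20.8%) were called, 1077 (9.72%) lower and 1229 (11.1%) higher in KO. In that blocked fit the 4 genes stood at −0.55 (SE 0.16) for Duox2, −0.86 (SE 0.15) for Duoxa2, −2.17 (SE 0.17) for Nos2 and 0.15 (SE 0.28) for Nox1. Over all cells, 0% of 12944 genes were called without the block, with 232 at an unadjusted p under 0.05 and 36 by DESeq2, and 1.17% with it (0.973% lower, 0.201% higher). Scaling by library size alone moved the median log2 fold change of all enterocyte genes from 0.06 to 0.25, and Nos2 then stood at −1.85 and Duox2 at −0.30.

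Other values moved with genotype or mouse in the same cells. The summed level of 8 villus tip genes (Apoa4, Ada, Nt5e, Slc28a2, Klf4, Egfr, Creb3l3 and Enpp3, chosen after the data had been seen) was 46837, 18362 and 47480 CPM in WT1 to WT3 and 33605, 14187 and 31648 CPM in KO1 to KO3. It was lowest in the hashtag 2 mice and lower in each KO mouse than in the WT mouse of the same number. Paneth cell markers, which enterocytes should lack, summed to 278 to 340 CPM (WT) and 575 to 769 CPM (KO). Markers of macrophages and dendritic cells, another possible source of Nos2, summed to 4.64 to 6.92 CPM (WT) and 3.21 to 6.67 CPM (KO). Of these 11 genes, 6 or 7 had no UMI in a given mouse. Mrc1 had most of the UMIs, 32 to 56 per mouse, while Adgre1 had 0 in all 6 mice, Csf1r 0 to 6 and C1qa 0 to 5. Neutrophil markers summed to 42.3, 0.847 and 3.61 CPM in WT1 to WT3 and to 2.04, 1.82 and 9.25 CPM in KO1 to KO3, highest in WT1. The part of these cells in the Nos2 values was not tested. Median mitochondrial share was 14.3% to 16.5% in WT and 10.3% to 14.4% in KO enterocytes.

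The enterocytes of each mouse, thinned to 3000 UMIs per cell, were also ranked by that tip sum and split into 3 equal groups. In the low tip group Nos2 was at 116 ± 46.2 CPM (WT) and 27.3 ± 20.1 CPM (KO), in the middle group at 109 ± 43.8 and 42.8 ± 19.2 CPM, and in the high tip group at 66.5 ± 19.2 and 19.5 ± 8.90 CPM (SD, n = 3 mice each). The mice of the genotypes did not overlap in the low and high groups and overlapped in the middle group. Duox2 showed another pattern. In KO mice it was at 136 ± 50.3 CPM in the low, 339 ± 55.1 CPM in the middle and 278 ± 58.4 CPM in the high group, and the high group was above the low in 3 of 3 mice. In WT mice it was at 203 ± 60.4, 273 ± 82.9 and 289 ± 143 CPM, with the high group above the low in 1 of 3 mice, WT2. Mean Duox2 was thus lower in KO in the low and high groups and higher in KO in the middle group. KO2, lowest in the sums above, was lowest in the low group (84.2 CPM) and highest of all mice in the middle group (401 CPM). Each cell weighs alike here, so these CPM and the sums above are not on 1 scale. The difference between the WT and KO patterns was not tested.

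Outside enterocytes the 3 abundant genes were low. The enterocyte gate held 60.4% of all UMIs but 93.3% of Duox2, 88.0% of Duoxa2 and 93.8% of Nos2 UMIs, and 74.4% of Nox1 UMIs. In goblet cells, the mucus-secreting cells, Duox2 stood at 18.6, 29.1 and 22.1 CPM in WT1 to WT3 and at 18.8, 9.13 and 12.3 CPM in KO1 to KO3. Enterocytes exceeded goblet cells in 6 of 6 mice for each gene, by 5.88-fold to 11.4-fold for Duox2, by 2.60-fold to 5.56-fold for Duoxa2 and by 3.16-fold to 9.71-fold for Nox1. Nos2 in goblet cells stood at 2.92, 5.40 and 8.14 CPM in WT and at 2.91, 0.537 and 0.514 CPM in KO mice, and the last 2 values rest on 3 and 2 UMIs. WT1 and KO1 were level there, and the genotypes did not otherwise overlap.

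The order of the gates was also read from the libraries, where intervals cover counting error only (exact Poisson, 95%). In crypt progenitor cells Duox2 was at 30.2 CPM (26.2 to 34.8) in WT and 6.45 CPM (5.18 to 7.94) in KO, and in goblet cells at 28.9 CPM (26.0 to 32.1) and 12.7 CPM (10.8 to 14.8). Of the goblet cells, 393 of 836 in WT and 12 of 462 in KO had no hashtag. In cells thinned to 3000 UMIs, 39 of the 69 WT goblet cells with a Duox2 UMI had no hashtag. Of the crypt progenitor cells, 95 of 146 in WT were from WT2 and 45 had no hashtag, and 174 of 187 in KO were from KO2. Of the 85 Nos2 UMIs of WT crypt progenitor cells, 60 came from 2 cells of WT3, and WT2 alone gave 4.30 CPM (2.75 to 6.39) against 0.536 CPM (0.215 to 1.10) in KO2. Nox1 stood apart from the other genes here: in the crypt progenitor cells of WT2 it was at 11.3 CPM (8.67 to 14.4), above the 5.46 CPM of the enterocytes of that mouse, whereas KO2 had 2.07 CPM (1.36 to 3.01) there and 3.96 CPM in enterocytes. Enteroendocrine cells, the hormone-secreting cells, had 13.9 CPM of Duox2 in WT (6.02 to 27.5) and 25.2 CPM in KO (16.3 to 37.2), where 22 of the 25 KO UMIs lay in 3 cells of KO1. Tuft cells, which are chemosensory, had 33.8 CPM of Nos2 in WT (16.9 to 60.4, all 11 UMIs in 1 of 20 cells), and 0 UMIs in 21 KO cells, which allows up to 9.94 CPM. Paneth cells had 29.0 CPM of Duox2 in WT (22.0 to 37.5) and 12.4 CPM in KO (8.73 to 17.1), and 37 of the 58 WT UMIs came from cells without a hashtag. Enterocytes were first in the order for Duox2, Duoxa2 and Nos2 in both libraries. Below them the small gates rest on few cells, and with 1 library per genotype no test was made.

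Detection per cell was read at equal depth. After thinning to 3000 UMIs, which left out 716 WT and 86 KO enterocytes as too shallow, a Duox2 UMI was found in 27.9%, 36.0% and 32.7% of enterocytes of WT1 to WT3 and in 30.3%, 26.3% and 26.0% of those of KO1 to KO3. Nos2 was found in 10.3%, 12.98% and 17.5% of WT and in 3.001%, 3.97% and 8.45% of KO enterocytes. The mice of the genotypes overlapped for Duox2. Nox1 was found in 1.43% of WT and 2.11% of KO enterocytes. Enteroendocrine cells thinned alike served as a rough gauge of free RNA, although their own transcripts cannot be told from it. Duox2 was found in 10.0% of WT and 5.13% of KO enteroendocrine cells, and 3 of the 4 WT cells with it had no hashtag. Nos2 was found in 7.50% and 0%, where the floor of 3 cells among 39 KO cells is 7.69%. Median depth before thinning was 6768 and 9279 UMIs in WT and KO enterocytes and 8991 and 24096 UMIs in enteroendocrine cells. The Nos2 shares of KO1 and KO2 and the Nox1 shares of both libraries lay under what these few cells allow, and no difference is read from the Nos2 and Nox1 shares. Other gates differed in this measure. WT Paneth cells had a Duox2 UMI in 26.0% and a Duoxa2 UMI in 22.0% of 50 cells, near the 32.6% and 23.5% of WT enterocytes. The 36 KO Paneth cells had 2.78% and 0%. All 13 WT Paneth cells with a Duox2 UMI, and 10 of the 11 with a Duoxa2 UMI, were among the 31 without a hashtag. Of the KO Paneth cells only 1 had no hashtag, so no genotype difference is read from these shares. WT crypt progenitor cells had a Duoxa2 UMI in 15.7%.

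The transcripts sat in a minority of enterocytes. The 5% of WT enterocytes with the most UMIs of the gene held 40.2% of Duox2, 54.3% of Duoxa2 and 68.7% of Nos2 UMIs. In KO enterocytes these shares were 37.4%, 62.4% and 85.4%. Such a share rises as a gene becomes scarcer, and these cells were not thinned. For scarce Nox1 it was 100% in WT and 77.6% in KO enterocytes. A Nos2 UMI was found in 18.6% of WT and 9.08% of KO enterocytes, so no genotype difference is read from these shares. The highest single cell had 43 Duox2, 75 Duoxa2 and 40 Nos2 UMIs, whereas no cell had more than 5 Nox1 UMIs. Cells with at least 10 Duox2 UMIs made up 5.38% of WT and 7.34% of KO enterocytes, and cells with at least 10 Nos2 UMIs 1.65% and 0.478%, in cells not thinned to equal depth.

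Duox2, Duoxa2 and Nos2 were found in the same enterocytes. Over the 6 mice, 614 thinned enterocytes had both Duox2 and Duoxa2, against 245 if the genes were detected independently within each mouse. The log2 odds ratio of this pair was 3.90, 3.92 and 3.63 in WT1 to WT3 and 3.84, 4.73 and 3.44 in KO1 to KO3. A Duox2 UMI was present in 68.7% to 82.5% of cells with a Duoxa2 UMI. Duox2 and Nos2 shared 258 cells against 120 under independence, with a mean log2 odds ratio of 2.55 ± 0.54 (SD, n = 6 mice), and Duoxa2 and Nos2 shared 204 against 82.4, with 2.45 ± 0.42. All 3 ratios were above 0 in 6 of 6 mice. The pairs with Nox1 were spread around 0, at −0.42 ± 1.05 with Duox2, −0.10 ± 0.88 with Duoxa2 and −0.05 ± 1.03 with Nos2, and shared only 19, 14 and 4 cells. In an exact 2-sided sign-flip permutation test over 6 mice, the 3 pairs without Nox1 reached p = 0.0312 each, the smallest this test can give, and 0.0625 after Benjamini-Hochberg adjustment over the 6 pairs, above 0.05. The genes had been chosen partly as leading genes of the same clusters, so the odds ratios describe these cells and support nothing further.

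**Figure D2:**
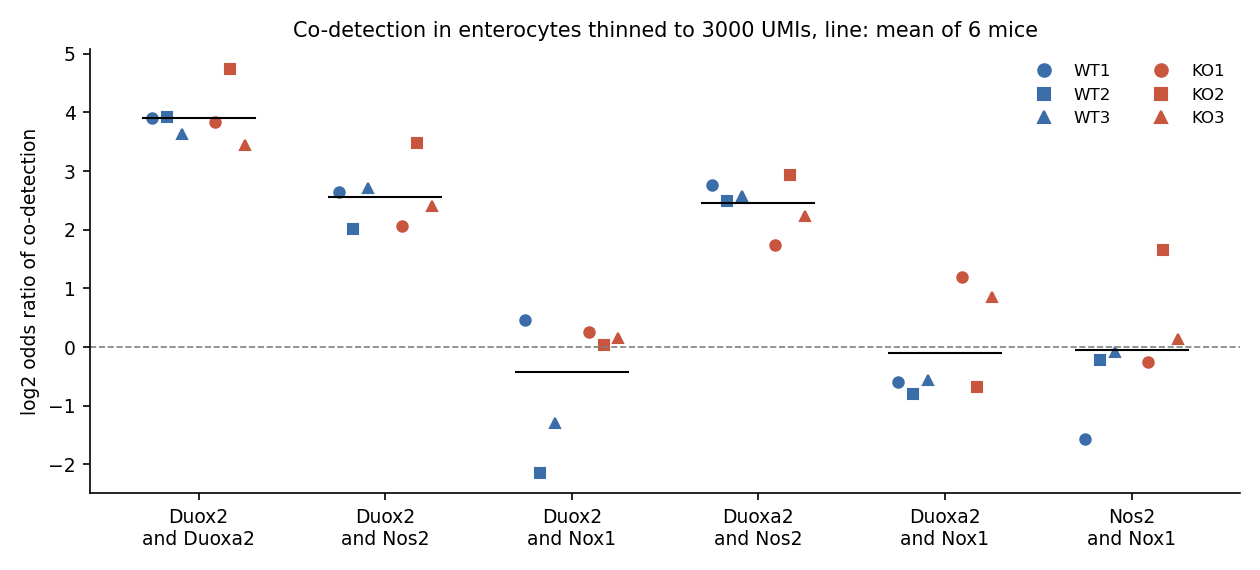
Log2 odds ratio of co-detection for the 6 gene pairs in enterocytes thinned to 3000 UMIs; each symbol is 1 mouse and each line the mean of 6 mice. The 3 pairs of Duox2, Duoxa2 and Nos2 lie above 0 in every mouse, and the pairs with Nox1 lie on both sides of 0.

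Enterocytes were then divided by a Duox2 UMI. In cells with a Duox2 UMI, Duoxa2 was at 360, 627 and 412 CPM in WT1 to WT3 and at 272, 474 and 390 CPM in KO1 to KO3. The genotypes overlapped there, with KO below the WT mouse of the same number in 3 of 3. Nos2 in the same cells was at 204, 189 and 279 CPM in WT and at 41.0, 75.5 and 122 CPM in KO mice. These groups did not overlap. Whether the 2 genes differed in this was not tested. In cells without a Duox2 UMI, Nos2 was at 21.0 to 45.9 CPM (WT) and 6.31 to 20.4 CPM (KO). Within a mouse, Nos2 was 4.12-fold to 9.73-fold higher with than without a Duox2 UMI, and Duoxa2 9.69-fold to 27.6-fold. The number of Nos2 UMIs per Duox2 UMI over all enterocytes was 0.319, 0.326 and 0.520 in WT1 to WT3 and 0.0860, 0.0874 and 0.243 in KO1 to KO3, while Duoxa2 UMIs per Duox2 UMI were 0.604, 0.888 and 0.780 in WT and 0.476, 0.682 and 0.678 in KO mice. Both ratios were lower in KO than in the WT mouse of the same number in 3 of 3, and only the Nos2 ratio did not overlap. Capture may differ between transcripts, so these ratios are compared only between mice.

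**Figure D3:**
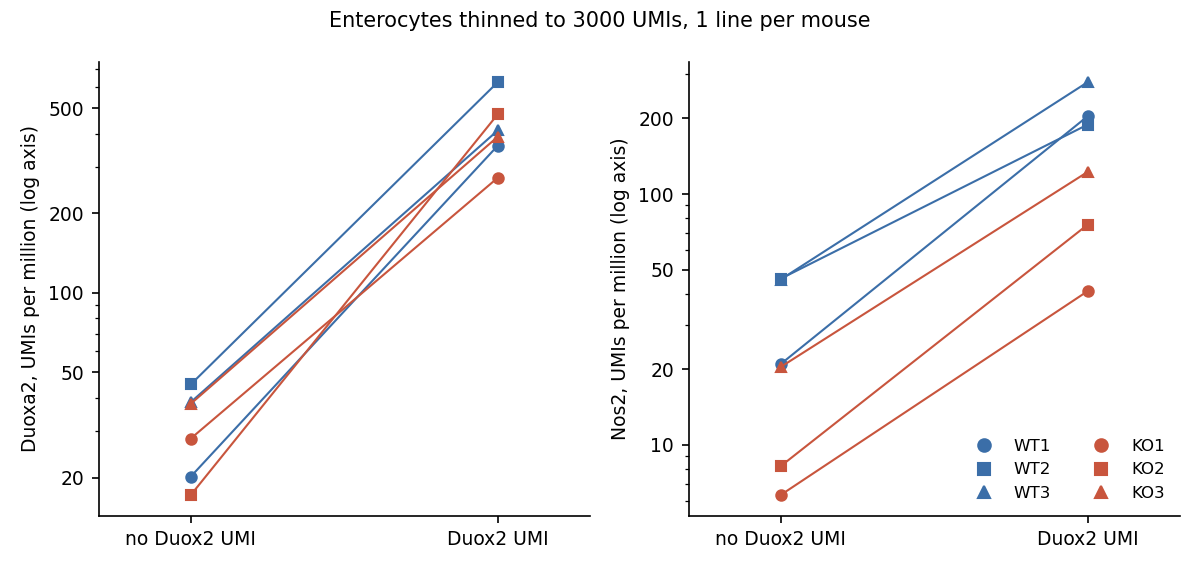
Duoxa2 (left) and Nos2 (right) in CPM on log axes, in enterocytes without and with a Duox2 UMI, thinned to 3000 UMIs per cell; each line is 1 mouse. With a Duox2 UMI the genotypes overlap for Duoxa2 and are apart for Nos2, at 189 to 279 CPM (WT) and 41.0 to 122 CPM (KO).

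The cells were also clustered without the 4 genes, into 22 clusters. Different clusters held the transcripts in WT and KO. In WT enterocytes, cluster 0, led by the villus tip enzyme gene Nt5e and by Bmp2, was 35.7% of cells. It held 59.6% of Duox2 and 44.3% of Nos2 UMIs. Cluster 11, led by genes such as Saa1 (serum amyloid A) and Cd74, was 7.68% of WT enterocytes and held 14.9% and 28.8%. In KO enterocytes, cluster 4, led by Plb1 and Saa1 among others, was 16.8% of cells and held 47.4% of Duox2, 55.9% of Duoxa2 and 45.8% of Nos2 UMIs. Cluster 0 had 1387 WT and 44 KO cells, cluster 4 had 34 and 491, and cluster 11 had 297 and 10, so each is nearly 1 library and may reflect that library rather than a cell type.

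Duox2 in cluster 4 was at 632, 738 and 490 CPM in KO1 to KO3, against 352, 464 and 306 CPM in cluster 11 and 299, 597 and 341 CPM in cluster 0 of WT1 to WT3. Each KO value exceeded each WT value of cluster 11. Nos2 stood the other way, at 42.6, 76.0 and 103 CPM in cluster 4 and at 225, 203 and 332 CPM in cluster 11. All of these clusters were kept in the enterocyte values above. Clusters 1, 2, 3 and 8 were the enterocyte clusters with at least 20 cells of every mouse. In cluster 1, led by St3gal1 and Nt5e, Duox2 was at 359 ± 211 CPM (WT) and 263 ± 39.8 CPM (KO) and Nos2 at 78.4 ± 79.7 and 18.4 ± 11.7 CPM. In cluster 2, led by Aspa and Fam118a, Nos2 was at 80.0 ± 34.4 CPM (WT) and 28.1 ± 26.9 CPM (KO) and Duox2 at 150 ± 78.2 and 78.9 ± 17.01 CPM (SD, n = 3 each). In cluster 3, led by Mbl2 and Spink1, Nos2 was at 25.5 ± 14.9 and 10.7 ± 7.37 CPM and Duox2 at 42.9 ± 23.1 and 65.2 ± 49.0 CPM. In cluster 8, led by Tmprss15 and Slc5a12, Nos2 was at 45.3 ± 70.3 and 2.23 ± 3.87 CPM and Duox2 at 40.8 ± 52.1 and 15.1 ± 14.4 CPM. The high WT mean of Nos2 there came from WT2 at 126.5 CPM. Mean Duoxa2 was lower in KO in clusters 1, 2 and 8. It was higher in KO in cluster 3, at 57.8 ± 45.4 CPM (WT) and 103 ± 67.2 CPM (KO). The ranges of the genotypes overlapped for Duox2, Duoxa2 and Nos2 in all of these shared clusters. Cluster 10, led by Reg1 and Aldh1a1 and drawn almost wholly from the hashtag 2 mice, had 10.8 CPM of Duox2, 11.6 CPM of Duoxa2 and 1.67 CPM of Nos2, the lowest Nos2 level of the enterocyte clusters.

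**Figure D4:**
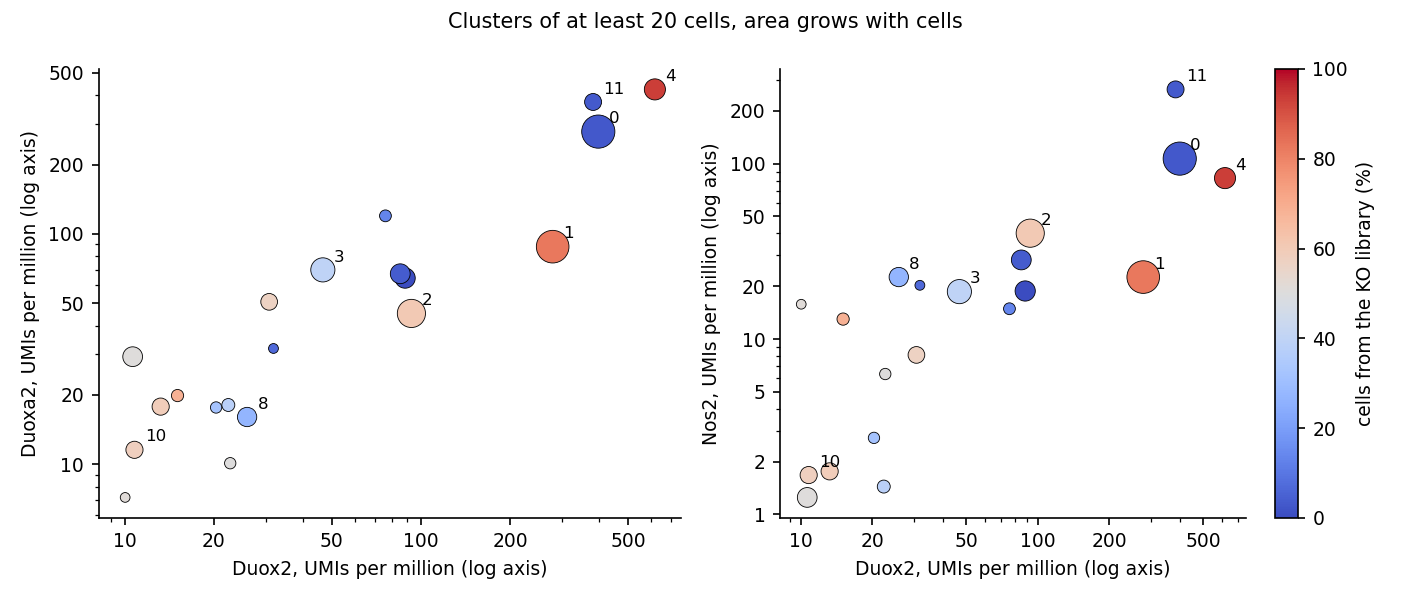
Duoxa2 (left) and Nos2 (right) against Duox2 in CPM on log axes, for clusters of at least 20 cells; colour is the share of cells from the KO library and area grows with cell number. Cluster 4 (KO) has the highest Duox2 at 617 CPM, while cluster 11 (WT) has the highest Nos2 at 265 CPM.

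The genes whose levels followed each member most closely over the 22 clusters were ranked by Pearson's r of log2(CPM + 10), among 6715 genes above 50 CPM in at least 1 cluster. Clusters share 2 libraries and differ in depth, so r is a description. For Duox2 these were 3300005D01Rik (r = 0.94), Duoxa2 (0.94), Cyp4a29, Gm15788 and Slc5a8, a monocarboxylate transporter gene. For Duoxa2 they were Duox2, Tgm2 (transglutaminase 2, r = 0.89), Rap2c, Rac1 (0.87) and Itgb6. For Nos2 they were Elovl1 (0.93), Slc5a8 (0.92), Tnfaip3 (0.92), the NF-κB-induced ubiquitin editor A20, Bmp2 (0.90) and Mfhas1. For Nox1 they were St5 (0.88), Sepsecs, Erlin1, Fam126b and Brox, none of which is in the lists of the other 3 genes. No cluster held more than 9.81 CPM of Nox1, under the 10 CPM added before the logarithm. Clusters 20 and 21, of 10 and 7 cells with 0 CPM of Nox1, counted as much as large clusters. The Nox1 ranking thus rests on values near the floor.

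The close relatives of the members were near 0 in enterocytes. Duox1, the other dual oxidase, had 30 UMIs over the 6 mice (0.161 to 0.968 CPM per mouse), Nos1 had 4 and Nos3 had 7. Among the partners of NOX1, Noxo1 was at 24.4 ± 13.7 CPM (WT) and 25.5 ± 14.4 CPM (KO), Cyba at 48.0 ± 37.5 and 32.6 ± 3.35 CPM, and Noxa1, the activator, at 1.28 ± 0.545 and 0.918 ± 0.187 CPM (SD, n = 3 each). Noxo1 was highest in WT2 (40.0 CPM) and KO2 (42.1 CPM). The log2 fold changes were −0.11 (SE 0.47) for Noxo1, −0.70 (SE 0.46) for Cyba and −0.65 (SE 0.40) for Noxa1, with edgeR adjusted p-values of 0.941, 0.870 and 0.870. None of them passed with the block either. Rac1, the GTPase of several NADPH oxidases, fell in the blocked fit by 0.58 on the log2 scale (SE 0.11, edgeR adjusted p = 0.00864), and 1 of 5 tested genes of the oxidase list outside the members (20.0%) thus passed, a share near the 20.8% of all genes.

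Counted without the block, 0 genes of the 5 lists passed in enterocytes. Of 14 other nitric oxide and arginine genes tested, 2 (14.3%) were lower and 3 (21.4%) higher with the block, beside 9.72% and 11.1% of all genes. Without the hashtag 2 mice 1 was lower and 1 higher (7.14% each), beside 4.92% and 2.55% of all genes. Gch1 and Pts make the tetrahydrobiopterin cofactor of nitric oxide synthases, as does Spr. Gch1 fell by 0.65 on the log2 scale (SE 0.12), Pts rose by 0.49 (SE 0.15) and Spr rose by 0.48 (SE 0.11). Arg2, the mitochondrial arginase that uses the same substrate as NOS2, rose by 1.29 (SE 0.20, edgeR adjusted p = 0.00405). It stood at 25.3, 310 and 21.6 CPM in WT1 to WT3 and at 69.2, 556 and 103 CPM in KO1 to KO3, far higher in the hashtag 2 mice, and without the block its adjusted p was 0.870. Ddah2, which degrades methylarginine inhibitors of nitric oxide synthases, fell by 0.90 (SE 0.21).

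Of 23 genes that remove hydrogen peroxide or superoxide, 4 rose and 2 fell with the block. Gpx1 (0.74, SE 0.13), Prdx1 (0.87, SE 0.17), Prdx3 (0.66, SE 0.15) and Prdx4 (0.91, SE 0.21), all peroxidases, were higher on the log2 scale. Gpx3 (−1.49, SE 0.26) and Gclc (−1.01, SE 0.20), a subunit gene of the enzyme that starts glutathione synthesis, were lower. The higher share, 17.4% of the list, stands beside 11.1% of all genes, and the lower share, 8.70%, beside 9.72%. Without the hashtag 2 mice 1 (4.35%) was higher and 2 (8.70%) were lower, beside 2.55% and 4.92% of all genes. Gpx2, the gut epithelial glutathione peroxidase, stood at 1111 ± 285 CPM (WT) and 1082 ± 98.5 CPM (KO) and passed neither fit (log2 fold change −0.23, SE 0.29, edgeR adjusted p = 0.870).

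Of 27 genes for receptors and signals upstream of the members, 8 fell and 0 rose with the block, 29.6% of the list beside 9.72% of all genes. Among them were Nfkbia, the NF-κB inhibitor that NF-κB itself induces (−1.31, SE 0.11), Il22ra1, a chain of the interleukin-22 receptor (−0.98, SE 0.12), Socs3 (−0.94, SE 0.13), Socs1 (−0.94, SE 0.26), Jak2 (−0.75, SE 0.10), Nfkb1 (−0.54, SE 0.10) and Tnfrsf1a (−0.36, SE 0.11). Nfkbia stood at 280, 218 and 303 CPM in WT1 to WT3 and at 133, 86.0 and 159 CPM in KO1 to KO3, without overlap. Il22ra1 stood at 36.5, 26.3 and 39.9 CPM in WT and at 23.8, 14.3 and 22.1 CPM in KO mice, also without overlap. In the fit without the hashtag 2 mice 5 of the 27 (18.5%) were lower, beside 4.92% of all genes.

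Of 13 genes often induced with Duox2 and Nos2 in epithelium, a list chosen with earlier results of these cells known and so no independent evidence of its direction, 5 (38.5%) fell and 1 (7.69%) rose with the block, beside 9.72% and 11.1% of all genes. Fut2, a fucosyltransferase gene (−1.65, SE 0.18), Tifa, an adaptor in NF-κB activation (−1.45, SE 0.16), Zbp1, a nucleic acid sensor (−1.28, SE 0.16), Ido1, a tryptophan-degrading enzyme (−1.04, SE 0.27), and Reg3g, an antimicrobial lectin (−0.87, SE 0.21), were lower. Il18 (0.84, SE 0.18), a cytokine of epithelium, was higher. Zbp1 stood at 86.6, 102 and 118 CPM in WT1 to WT3 and at 56.4, 31.8 and 61.0 CPM in KO1 to KO3, without overlap. Of the 13, 2 (15.4%) were lower and 0 higher without the hashtag 2 mice, beside 4.92% and 2.55% of all genes. The unblocked median log2 fold changes were −0.60 for the oxidase list, −0.20 for nitric oxide, 0.11 for peroxide removal, −0.25 for upstream signals and −0.54 for the co-induced list, beside 0.06 for all genes. With library size scaling alone the nitric oxide median was 0.01, beside 0.25 for all genes.

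**Figure D5:**
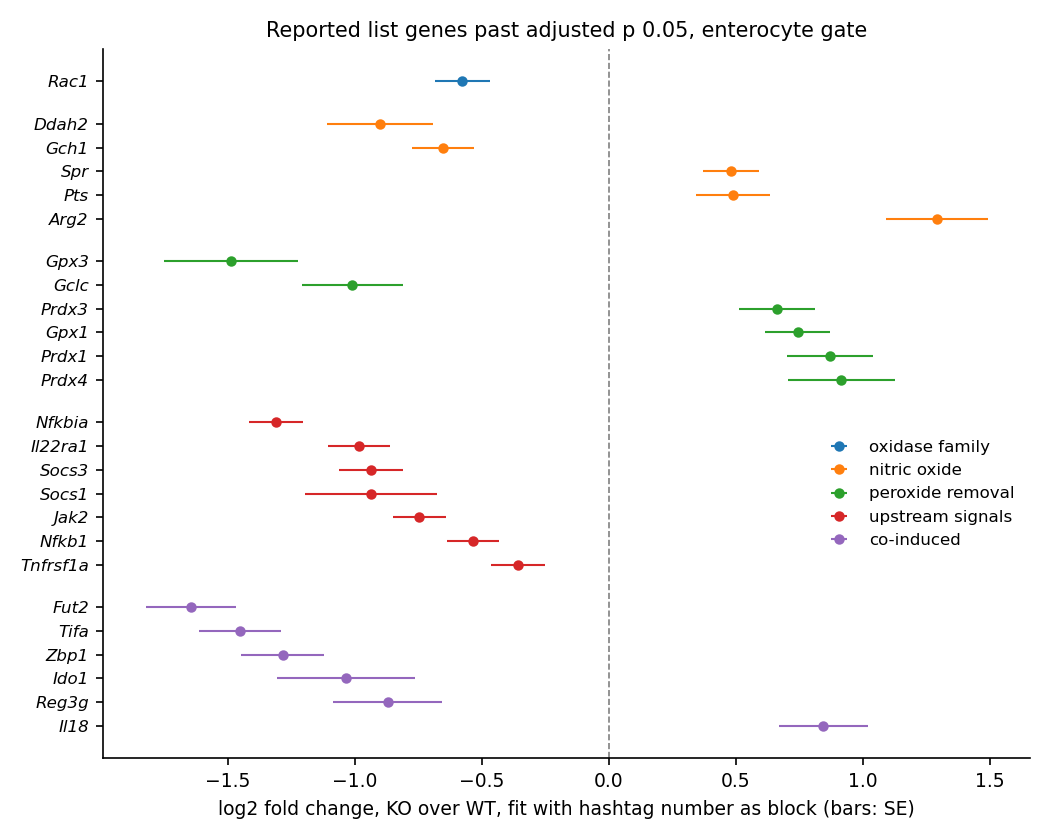
Log2 fold change of KO over WT with its SE, in enterocytes, for 25 list genes past an adjusted p of 0.05 in the fit with the hashtag number as a block, coloured by list. The 7 genes of upstream signals shown lie below 0, and the peroxide removal and nitric oxide lists lie on both sides.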

How the data were processed

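Single-cell 3' libraries of WT and KO small intestine, each with a hashtag library, were used. The submitters' processing notes list mm10, Cell Ranger 7.0.1 and, with no stated role, Seurat 4.1.0. The values deposited by the authors are unnormalized UMI counts per gene and barcode. The sources used here do not say whether intronic reads were counted, and an independent repeat named in the labels was not analysed here.

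Barcodes were filtered at 1000 UMIs, 500 genes and 25% mitochondrial UMIs. Mice were called from hashtags by HTODemux in Seurat 5.3.0 (quantile 0.99), leaving 2773 WT and 2868 KO cells in 6 mice. Hashtag doublets (549 and 305) were removed, and doublets within a mouse stay in. Gates took the class with the highest mean log marker level, scaled by the mean of its 20 highest cells. Of the enterocytes, 75 led the next class by less than 0.05, and 87 cells of other gates lay as near to the enterocyte score. Clusters used scanpy 1.11.5 and leidenalg 0.10.2 (2000 variable genes, 30 components, resolution 1).

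Counts were summed per mouse and tested with edgeR 4.0.16 (quasi-likelihood, TMM, filterByExpr, Benjamini-Hochberg, 0.05). The method was tested on simulated data. DESeq2 1.42.0, other scalings and filters, and leaving out mice were alternatives. The labels state no pairing, but deviations of log CPM from the genotype mean correlated between mice of equal hashtag number at 0.62, 0.86 and 0.63 in enterocytes, so the number was used as a block in a further fit. WT3 and KO1, which share no number, correlated at 0.61. P-values without the block measure the spread between mice within 2 pools. The blocked fit first removes the differences between hashtag numbers. Its p-values measure the spread that remains, and they rest on a pairing that the labels do not state. Named genes were the members, 9 fixed relatives, list genes past 0.05 in a fit given (at most 8 a list, by p) and the 5 most alike genes per member. Examples with values per mouse were chosen among these after their values were seen, as were the cluster leaders named. Intervals are exact at 95%, and 3 counts set the floor. The members and lists were chosen with earlier results of these data known. In the upstream signal list, 1 gene is counted but not reported here.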

Additional observations from a re-analysis of the deposited data

Results flagged for a closer look

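Barcodes past the 25% mitochondrial limit, 3995 of WT and 2526 of KO once hashtag doublets were left out, enter no comparison, and all 4 genes were found in them above the level of 3 counts (0.10 and 0.15 CPM). Their CPM in WT and KO were 50.4 and 36.3 for Duox2, 30.8 and 11.4 for Duoxa2, 16.96 and 4.90 for Nos2, and 4.27 and 6.48 for Nox1. These barcodes were not gated or split by mouse, and there is 1 library per genotype.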

How the results depend on the processing

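Over all cells, 0 genes were called in the fit without a block, 152 with the replicate block, 36 with DESeq2 and 9 without the hashtag 2 mice. In enterocytes the counts were 0, 2306, 73 and 823, and 12 without the low-count filter. Leaving out each mouse in turn gave 0 to 0 calls in both. The cause of these changes was not tested. In 15 enterocyte alternatives the log2 fold change ran from −0.80 to −0.29 for Duox2, −1.004 to −0.67 for Duoxa2, −2.71 to −1.61 for Nos2 and 0.02 to 0.55 for Nox1. Over all cells Nox1 ran from −0.16 to 0.58, on both sides of 0. In goblet cells Nos2 stood at −3.54 without KO1. Mean log2 odds ratios of the 3 pairs without Nox1 ran from 2.28 to 4.003 over their alternatives. Without thinning, a Duox2 UMI was found in 42.2% of WT and 41.9% of KO enterocytes, a Duoxa2 UMI in 31.6% and 26.5%, a Nos2 UMI in 18.6% and 9.08%, and a Nox1 UMI in 3.41% and 7.03%. The leaving out of the hashtag 2 mice and the split by villus tip genes were chosen after seeing the data. Depth limits Nox1 and every gate of under 100 cells.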
